A study of Homo sapiens with 3 samples.

Results

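Ribosome biogenesis and nucleolar factors are the proteins that transcribe, modify, cut and fold ribosomal RNA and assemble it with ribosomal proteins. Here they are 53 genes, taken as the rows whose gene name equals an entry of a fixed list, and all 53 were found among 50868 genes in the count tables. All 53 also passed the filter on low counts, as did 17287 genes of the whole series. The cells were NCI-H23, a human lung adenocarcinoma line. They received siRNA against USP16, which encodes a deubiquitinase known to act on histone H2A and also on late pre-40S particles, in 2 libraries numbered 1 and 2, or control siRNA in 1 library. The labels do not say whether libraries 1 and 2 are different siRNAs or different cultures, and the siRNA sequences, the dose and the time after transfection are not stated in the labels used here. A p-value therefore covers only how far these particular libraries lie apart, perhaps for technical reasons, and the lone control has no replicate.

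Ribosome assembly begins in the nucleolus, where RNA polymerase I makes one long precursor that holds the RNAs of both subunits. Box C/D and box H/ACA particles, each a small nucleolar RNA with core proteins, guide 2′-O-methylation and pseudouridylation of this precursor. The small subunit processome and a separate set of large subunit factors then cleave and fold it, and late factors carry the pre-40S and pre-60S particles to the cytoplasm. In tumour cells these genes are known for high expression and for their link to growth signalling.

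The libraries held 13956382 and 15071179 counts after USP16 siRNA and 14007161 counts in the control. USP16 itself had 109 and 245 counts in USP16 siRNA libraries 1 and 2, against 632 in the control, which on the scaled level is 83.8% and 66.8% lower. Epithelial keratins were present in every library, and KRT18 had 1986 and 3364 counts after USP16 siRNA and 2903 in the control. The 5 epithelial markers summed to 237 and 361 CPM (counts scaled to library size) after USP16 siRNA and 403 CPM in the control, though EPCAM among them was higher after USP16 siRNA, at 11.4 and 14.9 CPM, against 2.85 CPM in the control. The part of these differences in the results below was not tested. Of the alveolar markers, the surfactant genes SFTPB and SFTPC had 0 counts in every library and the lung lineage factor NKX2-1 had 4 to 10 counts. The leukocyte gene PTPRC had 0 or 1 count, endothelial markers summed to 6 to 12 counts, and of the 4 fibroblast markers, together 52.9 to 73.9 CPM, COL1A1 held most.

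No member passed the test of USP16 siRNA against control. The quasi-likelihood F-test of edgeR called 0 of 53 members at an adjusted p under 0.05, where it called 0.0174% of all genes (3 of 17287). At an unadjusted p under 0.05 it found 1 member, NOLC1, where it found 4.88% of all genes. DESeq2 also called 0 members, where it called 0.0782% of genes, 13 of the 16616 to which it gave an adjusted p. At the unadjusted level DESeq2 found 1 member, where it found 2.97% of all genes. USP16 itself, the siRNA target, was not called either (edgeR quasi-likelihood test, unadjusted p = 0.00142, adjusted p = 0.561). The lack of a call therefore does not show that a gene was unchanged. The edgeR fit has 1 residual degree of freedom, and sizes are described below without a call. The median log2 fold change of the 53 members was 0.14 in library 1 and 0.04 in library 2, beside 0.00 in both libraries for all genes tested. In bulk RNA, a change in the share of cells that express a gene and a change in RNA per cell cannot be told apart.

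More members lay above the control in both libraries than below it. Both USP16 siRNA libraries were above the control for 22 members (41.5%), where 33.4% of all genes tested were and 29.7% of the 11236 genes that averaged 100 counts or more. Both were below it for 12 members (22.6%), where 33.5% of all genes and 36.6% of those better-covered genes were. The other 19 members had opposite signs, as had 5732 of the 17287 genes tested and 3783 of the 11236 better-covered genes. The split depends on the scaling and the filter. With library totals without mitochondrial transcripts in place of trimmed means it was 28 above and 6 below. The medians of all genes were then 0.08 and 0.09 in libraries 1 and 2. With a filter at 100 counts on average the split was 25 above and 10 below. Sizes were small. Only NOLC1, NIP7 and RIOK1 were at least 1.5-fold higher in both libraries, 3 members (5.66%), where 9.52% of all genes and 5.02% of better-covered genes were. PPAN alone was at least 1.5-fold lower in both (1.89%), where 6.21% of all genes and 5.13% of better-covered genes were. NOLC1 was the 1 member at least 2-fold higher in both, where 3.75% of all genes and 1.36% of better-covered genes were. At least 2-fold lower in both were 0 members, where 1.68% of all genes and 1.02% of better-covered genes were. These shares of members at 1.5-fold and 2-fold were near or under the background. The 2 libraries share 1 control, so their joint direction is not independent evidence.

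**Figure D1:**
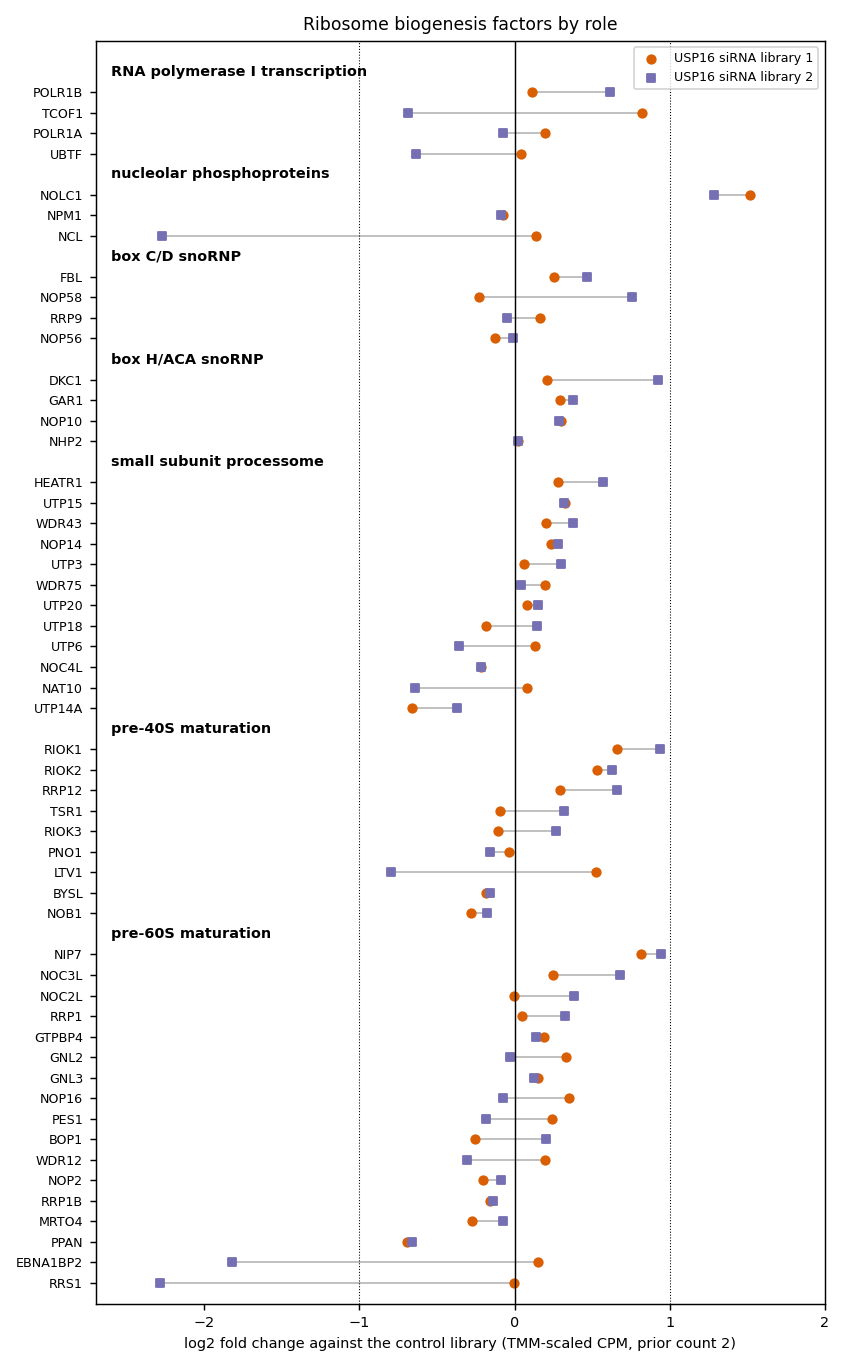
Log2 fold change of each of the 53 members against the control library (x axis, TMM-scaled CPM with a prior count of 2), grouped by role, with circles for USP16 siRNA library 1 and squares for library 2 and dotted lines at 2-fold. NOLC1 is the one gene beyond the right dotted line in both libraries, while NCL, RRS1 and EBNA1BP2 lie beyond the left line in library 2 and near 0 in library 1.

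**Figure D2:**
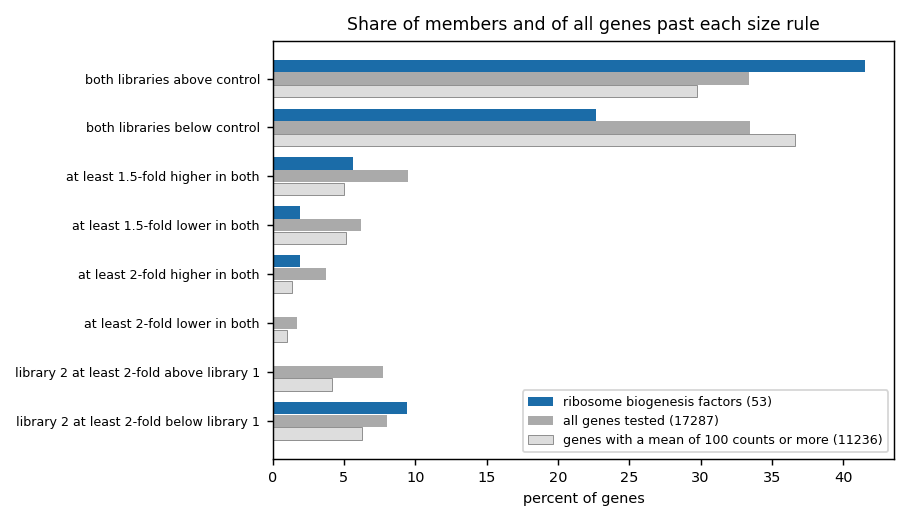
Percent of the 53 members (top bar of each set), of the 17287 genes tested and of the 11236 genes averaging 100 counts or more that pass each size rule. For members, 41.5% lie above the control in both libraries and 22.6% below it, while the 1.5-fold and 2-fold shares stay at or under 9.43%.

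NOLC1 had the highest fold change of the 53 members in both libraries. It encodes Nopp140, a nucleolar phosphoprotein that chaperones small nucleolar ribonucleoproteins, and lies on the plus strand of chromosome 10 at positions 102152176 to 102163871 of hg38. It had 7576 and 7079 counts in USP16 siRNA libraries 1 and 2, against 2485 in the control. On the scaled level this is 535 CPM (95% exact Poisson interval 523 to 547) and 455 CPM (445 to 466), against 187 CPM (179 to 194) in the control. Both USP16 siRNA libraries were thus above the control. The intervals cover counting error only, and those of the 2 USP16 siRNA libraries do not overlap each other either. The log2 fold change was 1.52 in library 1 and 1.29 in library 2, with a mean of 1.40 ± 0.16 (SD, n = 2). Its unadjusted p was 0.00444 by edgeR's quasi-likelihood test and 0.00325 by DESeq2. The adjusted p over all genes was 0.818 by edgeR and ranged from 0.194 without a filter on low counts to 1.00 among genes averaging 100 counts or more. No gene of the count tables overlaps NOLC1 in the annotation.

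The other phosphoproteins behaved differently. NPM1, nucleophosmin, an abundant histone and pre-ribosome chaperone, had 16693 and 18181 counts after USP16 siRNA and 16501 in the control, log2 fold changes of -0.07 and -0.08. NPM1 has many processed pseudogenes, and the 45 rows named for them held 6194 and 7141 counts after USP16 siRNA and 6694 in the control, most of them in NPM1P27. Summed with these rows the log2 fold changes were -0.11 and -0.10, so both readings lay within 0.11 of the control on the log2 scale. With library totals the mean for NPM1 alone was 0.0095, on the other side of 0. NCL, nucleolin, which binds nascent ribosomal RNA, was 0.14 in library 1 and -2.28 in library 2 and is taken up below.

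The 4 members of RNA polymerase I transcription were all above the control in library 1, with a median log2 fold change of 0.16. In library 2, 3 of them were below it, and the median was -0.35. The medians of all genes tested were 0.002 in library 1 and -0.003 in library 2. Another 12 genes of this role, outside the members, did not show this split. Their medians were 0.02 and 0.08, with 6 above the control in both libraries and 5 below it in both. POLR1A, the largest subunit of the enzyme, had 5869 and 5343 counts after USP16 siRNA and 4808 in the control, log2 fold changes of 0.20 and -0.07. POLR1B, its second largest subunit, had 1491 and 2316 counts, against 1293 in the control, 0.12 and 0.62, and was the one gene of the 4 above the control in both libraries, though with library totals 2 were. UBTF, the HMG-box factor that organises active ribosomal DNA, had 3865 and 2651 counts, against 3530 in the control. Its log2 fold changes were 0.04 and -0.64, so the difference came from library 2. TCOF1, treacle, which ties the polymerase to the processing machinery, was on opposite sides of the control in the 2 libraries and is described with NCL.

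All 4 core proteins of the box H/ACA particle were above the control in both libraries, where 33.4% of all genes tested were. This held under every scaling tried, but a scaling shifts the genes of a library together, so the scalings are not separate evidence. DKC1, the pseudouridine synthase dyskerin, had 2825 and 5077 counts after USP16 siRNA and 2292 in the control, log2 fold changes of 0.21 and 0.92. Its mean was 0.57 ± 0.50 (SD, n = 2; edgeR adjusted p = 0.999), so the excess was mainly that of library 2. GAR1, a core protein that binds dyskerin, had 707 and 822 counts, against 542 in the control (0.29 and 0.38). NOP10, the smallest core protein, had 1274 and 1388 counts, against 974 in the control, and its log2 fold changes of 0.30 and 0.29 were nearly equal. NHP2, a further core protein, had 3728 and 4089 counts, against 3451 in the control. Its log2 fold change of 0.02 in both libraries is too small to set it apart from the control. The median of the 4 was 0.25 in library 1 and 0.33 in library 2.

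The box C/D proteins were more mixed. FBL, fibrillarin, the methyltransferase of the particle, had 3816 and 4843 counts after USP16 siRNA and 3002 in the control, log2 fold changes of 0.26 and 0.47. It was the one box C/D gene above the control in both libraries, and with library totals or a filter at 100 counts on average 2 of the 4 were. NOP58, a core protein that holds the particle together, had 1803 and 3925 counts, against 1989 in the control, so its log2 fold changes had opposite signs, -0.23 and 0.76. Its partner in the particle, NOP56, had 4177 and 4958 counts, against 4279 in the control (-0.12 and -0.01). RRP9, a protein of the U3 particle that acts in small subunit processing, had 1118 and 1055 counts, against 935 in the control (0.17 and -0.05). None of the 8 snoRNP proteins reached 1.5-fold in both libraries, and the edgeR adjusted p was 0.999 for each.

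Of the 12 genes of the small subunit processome and 18S ribosomal RNA modification, 7 were above the control in both libraries and 2 below it. Of all genes tested, 33.4% were above it in both and 33.5% below it. The group medians were 0.11 and 0.15. HEATR1, a member of the subcomplex that couples transcription to processing, was highest, with 3880 and 5222 counts after USP16 siRNA and 3007 in the control (0.28 and 0.57). UTP15 of the same subcomplex had 895 and 976 counts, against 670 in the control (0.33 and 0.32), and WDR43, a further member, had 4285 and 5308, against 3496 in the control (0.20 and 0.38). These 3 genes were above the control in both libraries by less than 1.5-fold. The lowest was UTP14A, whose yeast counterpart activates a helicase that frees the U3 RNA. UTP14A had 1325 and 1782 counts, against 1972 in the control, log2 fold changes of -0.66 and -0.37. NAT10, the acetyltransferase of small subunit RNA, had 1853 and 1229 counts, against 1643 in the control (0.08 and -0.64). NOC4L, a partner of NOP14, had 499 and 547 counts, against 545 in the control, and -0.22 in both libraries. The other 6 genes, UTP3, UTP6, UTP18, UTP20, WDR75 and NOP14, lay between -0.18 and 0.24 in library 1 and between -0.36 and 0.30 in library 2, with 4 above the control in both.

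The highest pre-40S factors were RIO kinases, atypical protein kinases that act on late small subunit precursors. RIOK1 had 937 and 1248 counts after USP16 siRNA and 557 in the control, log2 fold changes of 0.66 and 0.94 (edgeR unadjusted p = 0.0920, adjusted p = 0.999). RIOK2 had 505 and 591 counts, against 327 in the control (0.53 and 0.63). Both kinases had all USP16 siRNA values above the control, while RIOK3, the third kinase, was at -0.11 and 0.27. RRP12, known in yeast as an export factor, had 1652 and 2341 counts, against 1268 in the control (0.29 and 0.66). NOB1, the endonuclease that makes the mature end of the small subunit RNA, had 1883 and 2216 counts, against 2146 in the control (-0.28 and -0.18). BYSL, a factor of the pre-40S particle, had 459 and 512 counts, against 489 in the control (-0.18 and -0.16). PNO1, a partner of NOB1, and the GTPase-like TSR1 were at -0.04 and -0.16 and at -0.09 and 0.32. Over all 9 genes 3 were above and 3 below the control in both libraries, where 33.4% and 33.5% of all genes tested were. The medians were -0.04 and 0.27.

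The 17 pre-60S factors were evenly spread, with 5 above and 5 below the control in both libraries and medians of 0.15 and -0.07. Of all genes tested, 33.4% were above and 33.5% below. With library totals 8 of the pre-60S factors were above and 2 below. NIP7, a small RNA-binding assembly factor, was highest, with 1563 and 1875 counts after USP16 siRNA and 835 in the control. Its log2 fold changes were 0.81 and 0.94, mean 0.88 ± 0.09 (SD, n = 2), with an edgeR unadjusted p of 0.0616 and an adjusted p of 0.999. NIP7 overlaps COG8 on the opposite strand, a gene with 825 and 785 counts after USP16 siRNA and 953 in the control, so the overlapping gene lay on the other side of the control. NOC3L, a partner of NOC2L in pre-60S transport, had 1444 and 2133 counts, against 1141 in the control (0.25 and 0.68). NOC2L had 3617 and 5186 counts, against 3404 in the control (-0.00 and 0.38). The PES1, BOP1 and WDR12 genes, whose products form one complex, had opposite signs in the 2 libraries. They were at 0.24 and -0.18, at -0.25 and 0.20, and at 0.20 and -0.31. The 11 pre-60S genes outside the 3 highest and the 3 lowest, which include these and the nucleolar GTPase genes GNL2, GNL3 and GTPBP4, lay between -0.27 and 0.35 in library 1 and between -0.31 and 0.33 in library 2.

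PPAN, the human counterpart of a yeast large subunit factor, was the one member at least 1.5-fold lower in both libraries, and the reading of its locus is uncertain. It had 417 and 468 counts after USP16 siRNA and 635 in the control, log2 fold changes of -0.69 and -0.66 (edgeR adjusted p = 0.999). The readthrough gene PPAN-P2RY11, which shares its exons and strand, had 351 and 200 counts, against 51 in the control, so it differed in the other direction. Summed, these rows had 768 and 668 counts, against 686 in the control, log2 fold changes of 0.07 and -0.26, and sums were added after the data were seen. P2RY11, also annotated across PPAN on this strand, had 51 and 30 counts, against 117 in the control. With P2RY11 added the sums were 819 and 698 counts, against 803 in the control, log2 fold changes of -0.06 and -0.43. Neither sum was 1.5-fold lower than the control in either library.

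**Figure D3:**
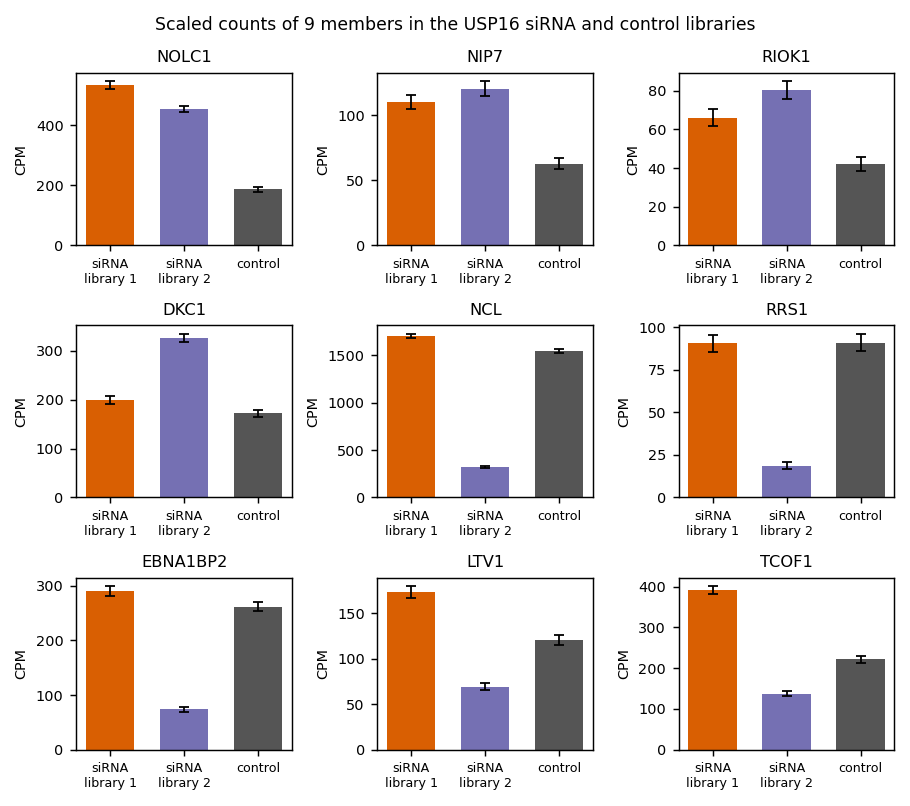
Scaled counts (CPM, linear axes from 0) of 9 members in USP16 siRNA library 1, USP16 siRNA library 2 and the control library, 1 library per bar, with 95% exact Poisson intervals that cover counting error only. NOLC1, NIP7 and RIOK1 are higher in both USP16 siRNA libraries than in the control and DKC1 mainly in library 2, while NCL, RRS1, EBNA1BP2, LTV1 and TCOF1 are lower in library 2 than in the other 2 libraries.

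The 2 USP16 siRNA libraries lay far apart at NCL, RRS1 and EBNA1BP2. Library 2 was at least 2-fold below library 1 for 5 members, where 8.02% of all genes tested and 6.24% of better-covered genes were. It was at least 2-fold above library 1 for 0 members, where 7.71% of all genes and 4.17% of better-covered genes were. The share of the 5 members, 9.43%, is close to the background, so the list as a whole is not set apart by it. Each library is a single sample, so no test of the difference can be had.

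NCL had 4975 counts in USP16 siRNA library 2, against 24209 in library 1, with 20622 in the control. The scaled level of library 2 was 0.187 times that of library 1 (95% exact binomial interval 0.182 to 0.193, counting error only), a log2 difference of -2.42. Library 1 and the control were close, at 1708 and 1549 CPM, while library 2 had 319.9 CPM. Of the 17287 genes tested, 71 had a lower log2 difference between the libraries than NCL. RRS1, which helps bring the 5S particle into the large subunit, had 289 counts in library 2, against 1286 in library 1, with 1213 in the control, a ratio of 0.205 (0.180 to 0.233). EBNA1BP2, the counterpart of a yeast pre-60S factor, had 1148 counts in library 2, against 4122 in library 1, with 3484 in the control, a ratio of 0.254 (0.238 to 0.271). For these 3 genes library 1 lay within 1.11-fold of the control and library 2 alone stood apart. Against the control they were at -2.28, -2.29 and -1.82 in library 2 on the log2 scale, and at 0.14, -0.01 and 0.15 in library 1.

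TCOF1 and LTV1 differed from those 3 in that the libraries stood on both sides of the control. TCOF1 had 2135 counts in USP16 siRNA library 2, against 5548 in library 1, with 2948 in the control, a library ratio of 0.351 (0.333 to 0.369). Its log2 fold changes against the control were 0.82 in library 1 and -0.69 in library 2. LTV1, a factor released from pre-40S particles after phosphorylation, had 1079 counts in library 2, against 2454 in library 1, with 1604 in the control, a ratio of 0.401 (0.373 to 0.431). A gene annotated across LTV1 on the same strand, RP3-468K18.5, had 138 and 17 counts in USP16 siRNA libraries 1 and 2 and 3 counts in the control, a small number beside those of LTV1. In the opposite direction the largest member was NOP58, with 3925 counts in library 2, against 1803 in library 1, a ratio of 1.98 (1.88 to 2.10). The other 47 members differed by at most 1.65-fold between the libraries.

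**Figure D4:**
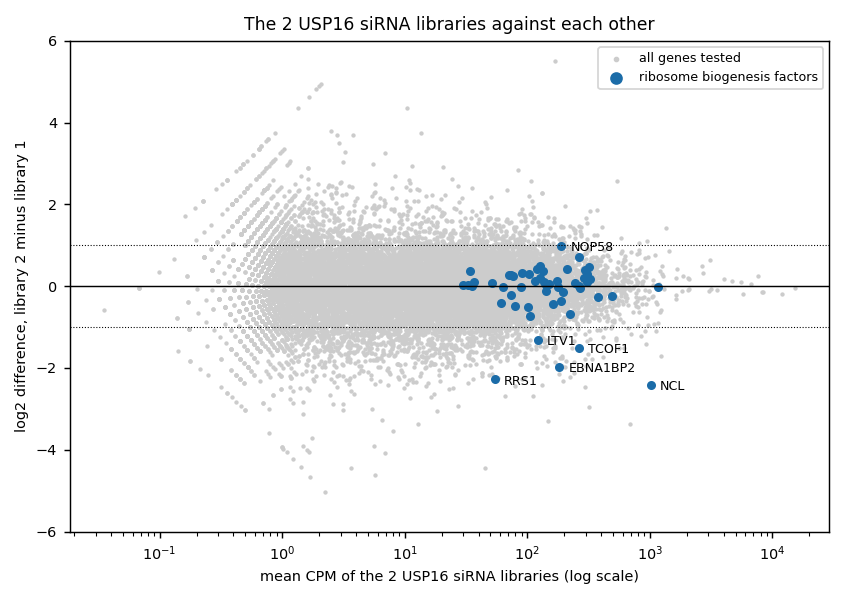
Log2 difference of USP16 siRNA library 2 minus library 1 (y axis) against the mean CPM of these libraries (x axis, log scale) for all 17287 genes tested (grey) and the 53 members (blue), with dotted lines at 2-fold. NCL, RRS1, EBNA1BP2, TCOF1 and LTV1 lie below the lower line and are labelled together with NOP58 at the upper line, while the rest of the members lie between the lines.

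Promoter sequences are shown for some of the members for which RefSeq lists one. NCL, EBNA1BP2 and LTV1 were at least 2-fold lower in library 2 than in library 1, and NIP7 and RIOK1 were high in both libraries. PPAN, low in both libraries, also has a listed promoter and is not shown. The sequences are the 250 bases before the RefSeq start, read 5′ to 3′ on the gene's strand (GRCh38.p14), and EBNA1BP2 has a pair of listed starts. Capitals mark the letters CACGTG, the E-box core, and CCGGAA, the core of ETS family sites, searched on both strands.
NCL (chr2:231464485-231464734, minus strand): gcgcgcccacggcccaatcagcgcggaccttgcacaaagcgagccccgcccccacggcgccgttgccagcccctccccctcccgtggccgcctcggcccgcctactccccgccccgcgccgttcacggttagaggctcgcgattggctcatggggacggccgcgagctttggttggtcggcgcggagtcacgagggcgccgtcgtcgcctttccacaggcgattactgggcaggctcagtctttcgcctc
EBNA1BP2 (chr1:43172571-43172820, minus strand): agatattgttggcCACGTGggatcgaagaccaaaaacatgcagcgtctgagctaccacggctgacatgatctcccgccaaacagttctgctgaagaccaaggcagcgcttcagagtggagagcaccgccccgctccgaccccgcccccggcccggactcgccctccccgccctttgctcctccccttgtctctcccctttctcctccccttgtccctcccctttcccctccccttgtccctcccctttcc
EBNA1BP2 (chr1:43172291-43172540, minus strand): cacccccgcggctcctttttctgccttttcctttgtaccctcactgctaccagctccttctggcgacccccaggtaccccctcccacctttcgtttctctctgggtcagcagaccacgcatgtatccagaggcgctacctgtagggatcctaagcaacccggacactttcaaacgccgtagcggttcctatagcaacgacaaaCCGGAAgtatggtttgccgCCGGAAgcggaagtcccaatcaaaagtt
LTV1 (chr6:143843088-143843337, plus strand): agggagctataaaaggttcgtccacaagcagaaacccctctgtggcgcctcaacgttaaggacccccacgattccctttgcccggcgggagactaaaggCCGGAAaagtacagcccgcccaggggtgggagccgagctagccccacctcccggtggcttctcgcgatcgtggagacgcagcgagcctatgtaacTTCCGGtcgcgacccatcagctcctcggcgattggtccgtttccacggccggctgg
NIP7 (chr16:69339522-69339771, plus strand): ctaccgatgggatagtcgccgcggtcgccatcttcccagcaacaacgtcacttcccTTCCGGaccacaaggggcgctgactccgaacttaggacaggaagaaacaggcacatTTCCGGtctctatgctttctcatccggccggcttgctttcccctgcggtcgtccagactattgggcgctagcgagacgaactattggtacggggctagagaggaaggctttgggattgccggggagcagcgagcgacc
RIOK1 (chr6:7389558-7389807, plus strand): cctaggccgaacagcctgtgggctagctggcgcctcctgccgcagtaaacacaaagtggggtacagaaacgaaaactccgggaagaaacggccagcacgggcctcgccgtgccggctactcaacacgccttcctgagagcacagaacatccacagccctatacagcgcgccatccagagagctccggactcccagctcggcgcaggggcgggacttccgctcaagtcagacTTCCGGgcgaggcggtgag

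In these windows CACGTG was found once, in EBNA1BP2, beginning 237 bases before the first listed start. CCGGAA was found in EBNA1BP2, LTV1, NIP7 and RIOK1 and not in NCL, so it occurred in genes of both sets. The promoter of PPAN, not shown, also held CCGGAA. Among the 46 members with a listed promoter, 21 (45.7%) held CCGGAA and 6 (13.0%) held CACGTG in at least 1 window. Among the 10637 protein-coding genes that were tested and listed, the shares were 28.7% and 11.2%. These matches describe the letters only.

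Levels were compared between members per length, as counts per kilobase of annotated exon, scaled to the same sum in every library. NPM1 was highest in each library, at 953 and 977 after USP16 siRNA and 907 in the control. NCL was the second in USP16 siRNA library 1, at 763, and in the control, at 626. In library 2 NCL had 148, below NHP2 and NOP10, which had 557 and 515 there. Lowest were the late kinases RIOK2, at 20.1 and 22.1 after USP16 siRNA and 12.5 in the control, and RIOK3, at 17.3 and 23.2 after USP16 siRNA and 16.9 in the control. RIOK2 was thus above RIOK3 in library 1 and below it in the other libraries. By role, the control medians were 242 for box H/ACA proteins, 147 for box C/D proteins, 96.4 for pre-60S, 80.5 for processome and 45.8 for pre-40S factors. The control median of the phosphoproteins was 626 and that of the polymerase I genes 64.6. The median member had 97.7 on this scale in the control, against 10.9 for all genes tested.

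**Figure D5:**
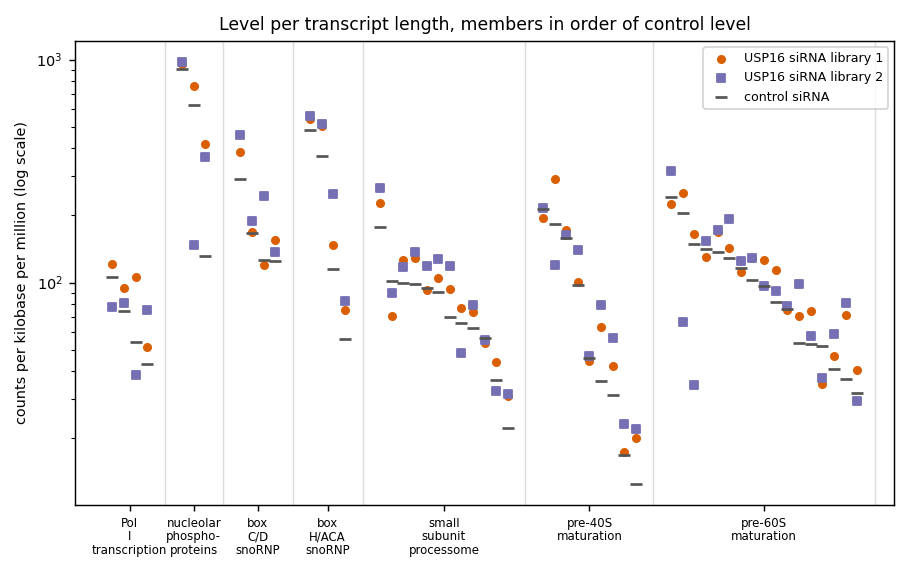
Level per annotated exon length of each member (y axis, counts per kilobase, scaled to the same sum per library, log scale) in USP16 siRNA library 1 (circles), USP16 siRNA library 2 (squares) and the control (dashes), by role and in falling order of the control level. NPM1 and NCL lead in the control, and the squares of NCL, EBNA1BP2 and RRS1 sit far below their dashes.

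The members share some features that their choice by name did not use. They have a median of 15 exons in the transcript with the most exons, against 10 for protein-coding genes tested, though RRS1 and UTP3 have 1 exon. Their longest transcripts were shorter, with a median of 3022 bases against 3683, and a like GC content, 48.4% against 48.8%. Small nucleolar RNA genes lie on the same strand inside 8 members (15.1%), NCL, NOP56, NOP58, DKC1, TSR1, PPAN, GNL3 and WDR43, against 1.71% of protein-coding genes tested. These hosts had no common direction: WDR43, DKC1 and GNL3 were above the control in both libraries, NOP56 and PPAN below it (NOP56 averaged 0.020 with library totals), and NCL, NOP58 and TSR1 on opposite sides. Above the control in both libraries were also 33.4% of all genes tested, and below it 33.5%, so the hosts are not set apart by this split.

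Another 81 genes of the pathway, listed by role outside the 53, were also spread around the control. The edgeR test called 0 of them and found 1, BMS1, at an unadjusted p under 0.05, and DESeq2 likewise called 0 and found 1. Of the 81, 30 (37.0%) were above the control in both libraries, where 33.4% of all genes were, and 23 (28.4%) were below it, where 33.5% were, with medians of 0.02 and 0.11. At least 1.5-fold higher in both were 3 genes (3.70%), where 9.52% of all genes were, and at least 1.5-fold lower in both were 2 genes (2.47%), where 6.21% were. Both shares are under the background, and the genes are given as values only. BMS1, the GTPase of the small subunit processome, had 3079 and 5240 counts after USP16 siRNA and 1510 in the control (0.94 and 1.57; edgeR adjusted p = 0.957). ESF1 had 1266 and 1130 counts, against 566 in the control (1.07 and 0.77), and MPHOSPH10, a protein of the U3 particle, had 1514 and 1495, against 800 in the control (0.83 and 0.68). In the other direction NOL9, a kinase of RNA ends in large subunit maturation, had 665 and 498 counts, against 978 in the control (-0.65 and -1.19), and NOP9 had 1178 and 1309, against 1702 in the control (-0.62 and -0.60). Library 2 was at least 2-fold below library 1 for 2 of the 81 (2.47%), the large subunit genes FTSJ3 and PAK1IP1, where 8.02% of all genes were. FTSJ3, an RNA methyltransferase of ribosome assembly, had 1123 counts in library 2, against 2885 in library 1, with 2845 in the control. PAK1IP1 had 396, against 906, with 861 in the control, so both again had library 1 near the control and library 2 apart. TEX10, of the complex that acts on the large subunit spacer, was the 1 gene (1.23%) at least 2-fold higher in library 2, where 7.71% of all genes were, with 1513 counts in library 2, against 537 in library 1, with 1282 in the control.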

How the data were processed

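Per the labels' protocols, total RNA was made into libraries with an mRNA kit. The authors deposited raw counts, whole numbers per gene with no normalization. Per the submitters' processing notes, HISAT2 2.0.4, StringTie 1.3.0 and hg38 were used, with no role stated. The counter, its use of strand and its treatment of shared reads were not given in sources used here, so reads of the 12 members overlapped by a gene averaging 100 counts or more, and of pseudogenes, may be shared.

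Low counts were removed with filterByExpr, and library sizes were adjusted by the trimmed mean of M-values (factors 1.02 and 1.03 after USP16 siRNA, 0.952 in the control). The main test was edgeR's quasi-likelihood F-test (edgeR 4.0.16 under R 4.3.3). Its p-values were adjusted by Benjamini-Hochberg over 17287 genes, with a threshold of 0.05. The spread comes from the USP16 siRNA libraries, and the control is taken to have the same. Fold changes per library are differences of log2 CPM with a prior count of 2, and their SD holds no variation of the control, which both share. DESeq2 1.42.0 was an alternative, with other filters, scalings and prior counts. The procedure was run on simulated data whose spread between libraries was set below the spread fitted here. That run therefore does not show how the test performs on these data. Intervals are 95% exact and cover counting error only. The USP16 siRNA libraries differed by a chi-square of 62.5 per degree of freedom and were kept as separate samples. The column of library 2 carries the number 6 in its header and was used as labelled.

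GENCODE 29 held 98.5% of the gene identifiers and gave positions, lengths and overlaps. Of 53 members, 46 matched a RefSeq promoter. Members and lists were chosen with earlier results of these data known. Counts in every library are given for all members of role groups of up to 4 genes, for the 3 highest and the 3 lowest by mean change in larger groups, and for members past 2-fold. Other members and pathway genes given with values were picked after their values were seen.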

Additional observations from a re-analysis of the deposited data

How the results depend on the processing

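No member passed the threshold under any of the 5 alternatives with a test. Over all genes, edgeR called 0 higher and 3 lower, also with median-ratio size factors. It called 40 higher and 30 lower without a filter on low counts, 0 higher and 1 lower among genes averaging 100 counts or more, and 1 higher and 3 lower with library totals without mitochondrial transcripts. DESeq2 called 7 higher and 6 lower. The 5 members 2-fold lower in library 2 than in library 1, and NOLC1, NIP7 and RIOK1 at 1.5-fold, were the same genes under the 2 other filters, the 2 other scalings and a prior count of 10, with 1 more at 1.5-fold under library totals. With the higher filter or library totals, 1 member, NOP58, was 2-fold above library 1 in library 2. With library totals 0 members were 1.5-fold lower in both, and the group median, averaged over the libraries, was 0.18 for all members (0.09 with trimmed means), 0.38 for box H/ACA proteins (0.29) and 0.22 for the processome (0.13). The higher filter gave 0.17 for the processome. Among the 33 members given with counts, the mean log2 fold change turned sign for NOP56 (0.020) and NPM1 (0.0095) with library totals. The cause was not tested, and the other 20 members were not run one by one. For LTV1 the mean of the values per library was -0.14, while the fitted log2 fold change was 0.0091 by edgeR and by DESeq2. These are different measures, so LTV1 did not turn sign between the methods. Leaving out either USP16 siRNA library gives values with no test, since no residual degree of freedom is left. Then 4 to 9 members were 1.5-fold higher, 2 to 8 were 1.5-fold lower and 0 to 3 were 2-fold lower, the 3 being NCL, RRS1 and EBNA1BP2 in library 2. No paired analysis was possible because the control is 1 library whose label carries no number. The lowest member count was 289. For 13 members the counting interval of the ratio of library 2 to library 1 includes 1, so a difference between these libraries was not detectable at this depth.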
